A study of Chlamydomonas reinhardtii with 90 samples.

Results

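In the green alga Chlamydomonas reinhardtii, 71 genes had a transcript level that stood high after 0.5 h at 40 °C and fell back while the heat went on. At each time point from 2 h to 24 h of heat it was less than 1 above its starting level on the log2 scale. The 71 genes were chosen from 15541 tested genes by the measured values themselves. The level was the log2 of the CPM (a gene's read count scaled to the size of its library) after TMM scaling, a normalisation that sets the bulk of genes in each library to a common level, averaged over the 3 libraries of a time point. A member had to be 3 or more above 40 °C pre-heat at 0.5 h and less than 1 above it at 2, 4, 8, 16 and 24 h, and the difference from 40 °C pre-heat at 0.5 h is called the rise below. Altogether 600 genes met the first part (3.86% of those tested), 71 of them also met the second and are the members, and 529 did not. These contrasts are therefore given as a description, with no test.

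All cultures were of 1 wild-type strain, CC-1690 (21gr, mt+), which divides as single cells and was kept in acetate-containing TAP medium under constant light in turbidostat photobioreactors. Separate reactors were heated to 35 °C or to 40 °C, and sampling began before heating and on reaching the heat, followed after 0.5, 1, 2, 4, 8, 16 and 24 h of heat, and ended with 0, 2, 4, 8, 24 and 48 h of recovery at the growth temperature. Each of the 30 groups had 3 libraries of polyA RNA, lettered A, B and C and described as biological replicates. All comparisons are within 1 strain and 1 medium, and neither group carried a transgene or an added agent.

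Heat unfolds proteins, and cells answer within minutes by making chaperones that hold or refold them. In the usual account, heat shock factors sit under restraint by HSP70 and HSP90 chaperones, are released when these are drawn off by unfolded proteins, switch on chaperone genes and are restrained again once chaperones are plentiful, so that many heat shock transcripts come and go quickly. Misfolded proteins of the secretory pathway are handled apart, by lumenal HSP70 and calreticulin and by the machinery that pulls them out of the endoplasmic reticulum (ER) for ubiquitin-dependent destruction.

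The libraries held between 10872030 and 35917831 counted reads, with a median of 22088536. The 3 libraries of 0.5 h at 40 °C did not stand at the same point. Their TMM factors were 0.509 in A, 0.719 in B and 0.812 in C, the first being the lowest of all 90 libraries, where a low factor means that the bulk of genes took a smaller share of the reads. Members took 5.08%, 5.45% and 4.24% of the counted reads in them, against 0.598% to 0.664% before heating. The members' share of counted reads was thus largest in B. By log2 CPM, which is scaled by the TMM factors, 64 of the 71 members were highest in library A and 7 in library B, and 61 stood in the order A, B, C. The other 529 genes that met the first part stood alike, with 469 highest in A and 451 in the order A, B, C. When 40 °C was reached the order was turned round, with 64 members highest in library C, 5 in B and 2 in A. After 1 h, 43 were highest in C, 24 in A and 4 in B. The sources do not say whether a letter stands for the same culture throughout, and the part of this spread in the results below was not tested.

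Over the course of the 40 °C treatment the median member stood 1.79 above pre-heat on reaching 40 °C and 3.30 above it after 0.5 h, on the log2 CPM scale. That difference was 1.92 after 1 h, 0.54 after 2 h and −0.15 after 4 h. In each member all 3 libraries of 0.5 h lay above the 3 pre-heat libraries, as the choice of members nearly requires and as held for 33.1% of all genes. The rise ran from 3.002 to 6.64, and 42 members lay under 3.5. The median of all tested genes stayed between −0.04 and 0.04 through those time points. The 529 other genes peaked at a median of 3.95 and were still 2.07 above pre-heat at 2 h and 1.77 at 24 h. Of the members, 68 had their highest level of all 14 later time points at 0.5 h. The 3 exceptions, named here after their values were seen, were MMP7, which was highest when 40 °C was reached, and Cre03.g199050 and Cre02.g076987, which were higher still at 8 h of recovery. At 2 h of heat 12 of the 71 members lay below pre-heat, against 48.3% of all genes, in values that the rule used. Read shares cannot separate more copies of a transcript from less RNA of other genes, and without TMM scaling, by library size alone, the median member stood 2.77 above pre-heat while the median of all genes stood at −0.60, and 23 genes met the rule.

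**Figure D1:**
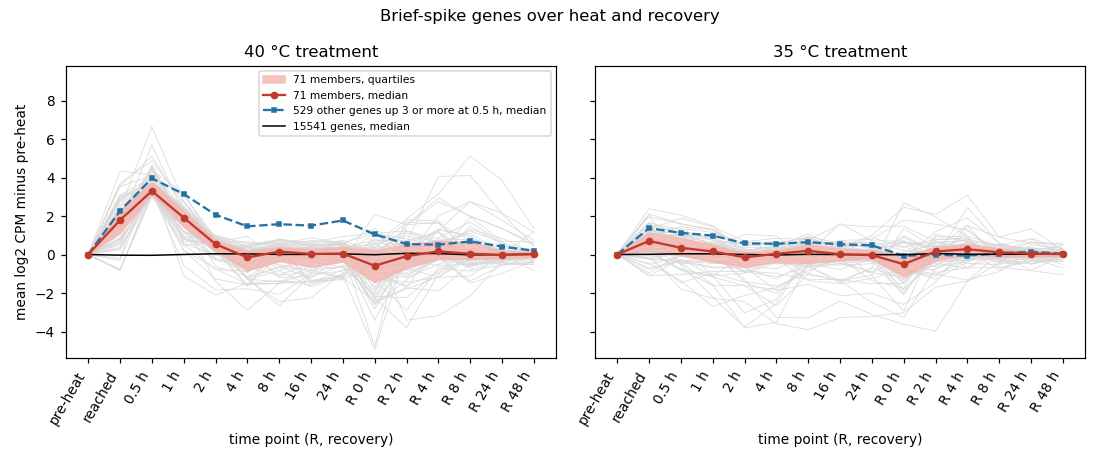
Mean log2 CPM minus pre-heat at each time point of the 40 °C treatment (left) and the 35 °C treatment (right); grey lines are the 71 members, the red line and band their median and quartiles, the blue dashed line the median of the 529 other genes that were 3 or more above pre-heat at 0.5 h, and the black line the median of all 15541 genes. At 40 °C the members' median reaches 3.30 at 0.5 h and −0.15 at 4 h, and at 35 °C it stays at or under 0.71.

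Membership, in values scaled by the TMM factors, rested in part on library A. The rise in that library alone was 3 or more for 70 members, in B for 64 and in C for 21, with medians of 4.23, 3.39 and 2.73. With A left out of the 0.5 h mean, 36 genes met the rule, each of them a member, and the other 35 members had a rise from 2.04 up to the limit of 3. With C left out, 123 genes met it, all 71 members among them. When every library of letter A was left out 40 genes met it, and 116 when letter C was. The nearest genes inside the limit were Cre03.g193150 and Cre02.g076987, at 3.002 and 3.003, and those just outside were SRS3 at 2.998 and ERJ1 at 2.995. At the other limit, UBC13 and Cre17.g704650 had a highest value from 2 h on of 0.997 and 0.977, and PEX5 and SLT3, at 1.010 and 1.016, were left out by it.

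**Figure D2:**
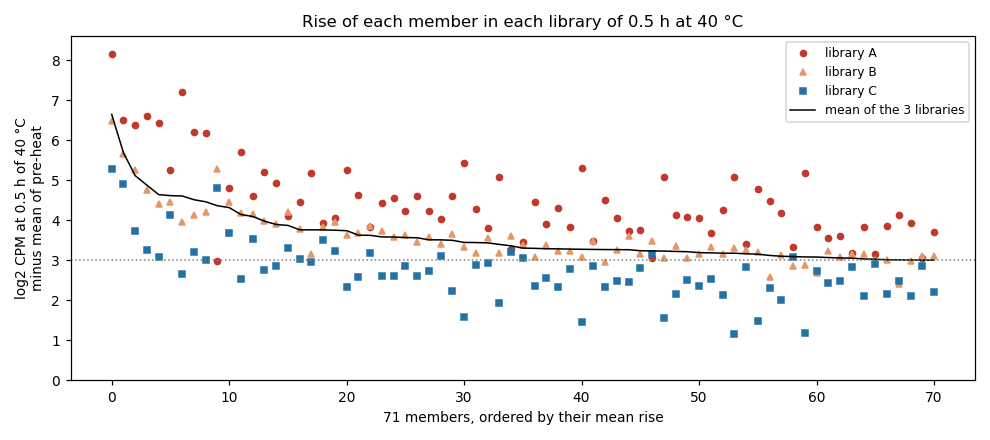
Rise of each of the 71 members (x axis, ordered by mean) in the 3 libraries of 0.5 h at 40 °C, as log2 CPM minus the mean of the 3 pre-heat libraries; circles, triangles and squares are libraries A, B and C, the line is their mean and the dotted line the limit of 3. Library A lies highest for 64 members, and 21 members reach 3 in library C.

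Starting levels differed widely. In TPM, shares of the transcripts of a library that take gene length into account, the members' mean before heating ran from 0 to 424 with a median of 4.56, and at 0.5 h of 40 °C from 0.0922 to 2854 with a median of 42.2. At 0.5 h 26 members were above 100 TPM and 5 were below 1 TPM. TPM does not use the TMM factors. By TPM some members, such as HSP70A and BIP1, were highest in library B at 0.5 h, and others, such as DNJ1 and NTR3, in library A. For 10 members some pre-heat library had fewer than 10 reads, and their rise depends on the small count added before taking logs. The study's annotation tables gave a symbol to 31 members and a role could be assigned to 45, in groups formed after the values were seen.

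While 16 members were pooled as other annotated genes, the largest group with a named role was that of heat shock factor and chaperones, with 12 members. Their rise at 0.5 h of 40 °C ran from 3.06 to 3.76 with a median of 3.54, and their median level went from 42.3 TPM before heating to 369 TPM. HSF1 encodes a heat shock transcription factor. Its TPM was 2.42, 2.25 and 2.19 in pre-heat libraries A, B and C, 10.6, 13.5 and 20.5 when 40 °C was reached, 18.05, 18.5 and 11.02 at 0.5 h, 8.78, 10.7 and 10.7 at 1 h and 3.93, 2.86 and 2.77 at 2 h. The 3 libraries of each time point from reaching 40 °C to 1 h lay above every pre-heat library, which at 0.5 h the choice of members nearly requires. By 2 h HSF1 was within 0.58 of its starting level on the log2 CPM scale.

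The members included 5 genes of the HSP70 family, the ATP-driven chaperones that bind stretches of unfolded protein. HSP70A, the cytosolic form, had 289, 224 and 260.0 TPM before heating, 1135, 1536 and 2115 when 40 °C was reached and 2249, 3059 and 1954 at 0.5 h. It then stood at 719, 1297 and 1478 TPM at 1 h and 269.8, 379 and 369.8 TPM at 2 h, where 2 of the 3 libraries were still above the pre-heat range. HSP70B, the chloroplast form, went from 124, 119 and 131 TPM to 687, 912 and 723 TPM at 0.5 h. BIP1, the HSP70 of the ER lumen, went from 85.3, 77.2 and 89.5 TPM to 668, 928 and 772 TPM, and reads that fit both it and its close relative BIP2 were not counted. HSP70G, annotated as a relative of HSP110 in the ER, had 20.1, 22.5 and 21.9 TPM before heating and 184, 175 and 149 TPM at 0.5 h. HSP70E, another member of the wider family, had 34.7, 31.7 and 32.0 and then 245, 367 and 239.6 TPM. For each of the 5 genes the lowest library at 0.5 h was more than 5 times the highest before heating. These are values the rule used, and the choice of members nearly requires that such groups do not overlap. By log2 CPM the libraries of 0.5 h lay above those of pre-heat for 33.1% of all genes.

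Helpers of these chaperones were members too. DnaJ proteins hand clients to HSP70 and start its ATP hydrolysis. DNJ1 had 61.8, 52.0 and 55.7 TPM before heating and 653, 598 and 374 TPM at 0.5 h, while the means of DNJ8 and DNJ35 went from 7.004 ± 0.641 and 5.89 ± 0.173 TPM to 40.7 ± 7.91 and 37.9 ± 9.51 TPM (SD, n = 3). CPN60C, a chaperonin that folds proteins inside a closed chamber, went from 65.8, 72.8 and 67.4 TPM to 396, 555 and 463 TPM. Cre07.g321850, whose product resembles activators of the HSP90 ATPase, went from 16.9, 16.9 and 18.6 TPM to 172, 167 and 102 TPM. The last of the group, Cre07.g341550, is described as similar to HSP20-like chaperones and had a mean of 51.8 ± 5.31 TPM before and 454 ± 177 TPM at 0.5 h (SD, n = 3). Of the 12, 9 kept a rise of 3 or more without library A, and the lowest without it was 2.78.

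**Figure D3:**
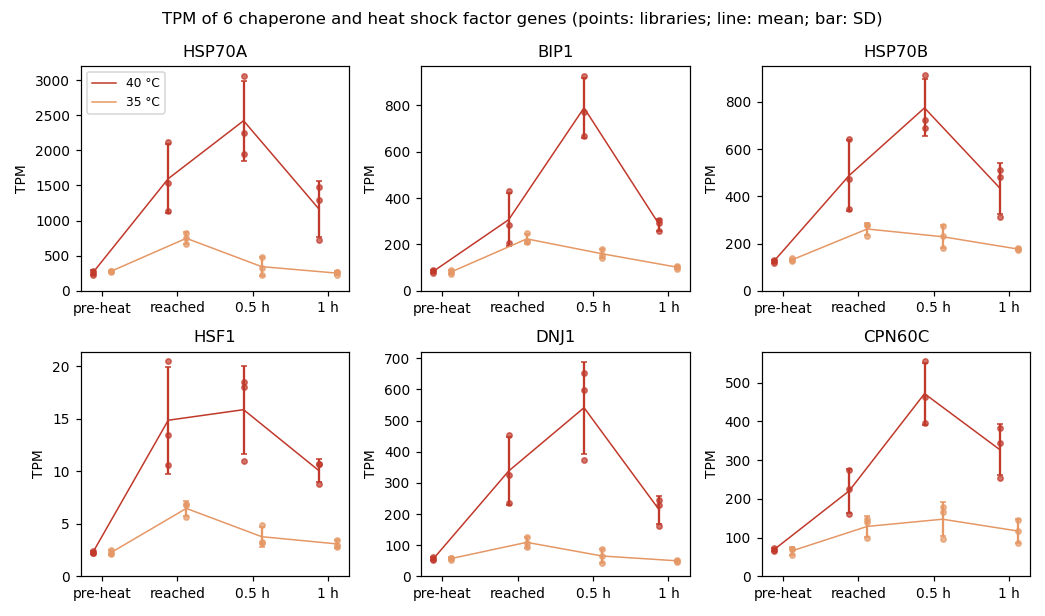
TPM of HSP70A, BIP1, HSP70B, HSF1, DNJ1 and CPN60C before heating, when the temperature was reached and at 0.5 and 1 h, at 40 °C (red) and 35 °C (orange); points are the 3 libraries, lines the means and bars the SD. At 40 °C every library of 0.5 h lies above every pre-heat library, as the choice of members nearly requires. HSP70A reaches a mean of 2421 TPM at 0.5 h of 40 °C.

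The ER, ubiquitin and membrane traffic group held 9 members, with rises from 3.01 to 3.498. CRT2 encodes a calreticulin, a calcium-binding chaperone of the ER lumen. It had 331, 289 and 337 TPM before heating, 1493, 1972 and 1939.5 TPM at 0.5 h and 1454, 1379 and 1272 TPM at 1 h, a slower fall than that of BIP1, which was at 257, 306 and 291 TPM by then. DER1, a derlin that serves in the removal of misfolded proteins from the ER, went from 9.28, 8.64 and 9.91 TPM to 71.1, 57.5 and 33.8 TPM. Cre14.g613350, described as UFD1, which works with the CDC48 ATPase on ubiquitylated proteins, went from a mean of 6.52 ± 1.11 to 44.9 ± 16.0 TPM (SD, n = 3).

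UBC13, an E2 enzyme that builds ubiquitin chains, had 8.05, 6.96 and 7.74 TPM before and 44.1, 65.0 and 44.8 TPM at 0.5 h, and it lay closest to the late limit. RAD23, known for bringing ubiquitylated proteins to the proteasome as well as for DNA repair, had a rise of 3.03 at 0.5 h and of 0.89 at 1 h. The ubiquitin-like Cre03.g173600 and the ubiquitin pathway candidate Cre01.g030550 had rises of 3.498 and 3.05. SEC22, annotated as a SNARE, one of the proteins that fuse transport vesicles with their target membrane, and Cre06.g267900, a prenylated Rab acceptor, had rises of 3.10 and 3.26. Without library A, 2 of these 9 genes stayed at 3 or more, and the median was 2.95.

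Another 8 members encode proteins of the cell surface, the wall or proteases. MMP7 and MMP10 belong to the VMP family of metalloproteinases, relatives of the gametolysin with which this alga digests its wall. MMP7 had 2.52, 3.79 and 2.72 TPM before heating, 29.8, 45.7 and 65.1 TPM when 40 °C was reached and 81.0, 41.6 and 14.04 TPM at 0.5 h. Its libraries therefore spread from 14.04 to 81.0 TPM at 0.5 h, in the opposite order to that at the earlier time point. MMP10 stayed low, with 2.41, 0.817 and 0.444 TPM at 0.5 h and no more than 0.0689 TPM in any pre-heat library.

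FAP346 and FAS2 are neighbouring genes whose products carry fasciclin domains, which serve in cell adhesion elsewhere. FAP346 went from 4.49, 3.14 and 4.72 TPM to 36.4, 57.5 and 32.8 TPM at 0.5 h, and FAS2 from 5.54, 4.63 and 5.27 TPM to 44.9, 35.2 and 21.5 TPM. GSL1, a glucan synthase-like gene, had 44.8, 72.1 and 54.3 TPM before heating and 1158, 365 and 124 TPM at 0.5 h, with library A far above library C. At 1 h it stood at 112, 20.9 and 16.9 TPM and at 2 h at 19.7, 13.1 and 11.01 TPM, below its starting level in every library. The cysteine endopeptidase CEP9, the prolyl hydroxylase PFH16, which belongs to a family that modifies hydroxyproline-rich wall proteins, and the apyrase-like Cre06.g273500 had rises of 3.56, 3.24 and 3.18.

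The largest rises lay outside the chaperones. Cre03.g207901, with no role in the tables, had the largest, 6.64, going from 1.90, 1.43 and 1.53 TPM to 244, 113 and 51.3 TPM, and was at 31.4, 6.33 and 5.13 TPM by 1 h. NTR3, an NADPH-dependent thioredoxin reductase, an enzyme that passes reducing power to thioredoxins, followed at 5.68. It had 13.01, 15.9 and 15.7 TPM before heating, 19.0, 36.4 and 61.5 TPM when 40 °C was reached, 701, 578 and 360.4 TPM at 0.5 h and 7.92, 10.5 and 8.52 TPM at 2 h, below every pre-heat library. VFL5, known from mutants with a variable number of flagella, went from 0.580, 0.548 and 0.478 TPM to 27.4, 11.3 and 4.19 TPM. AIH2, an agmatine iminohydrolase on a route to putrescine, had 1.85, 2.40 and 2.56 TPM before, 45.5, 38.4 and 32.2 TPM at 0.5 h and 1.58, 0.660 and 0.439 TPM at 2 h. Both NTR3 and AIH2 thus lay lower in every library at 2 h than in any before heating.

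The remaining symbols were spread over transport, signalling and nucleic acid enzymes. MKP6, a dual-specificity phosphatase of the kind that switches off MAP kinases, had a rise of 3.63. HLA8, a nuclease or co-activator named for its induction in high light, went from 78.3, 91.5 and 96.1 TPM to 385, 760.1 and 639.6 TPM. The transporter-like MOT20, the alkaline phosphatase PHO4, MOT51 and the homeodomain-like DIV39 had rises of 3.36, 3.09, 3.07 and 3.01, PHO4 from fewer than 10 reads in a pre-heat library. Cre12.g531250, whose closest Arabidopsis match is zeaxanthin epoxidase, and Cre08.g362750, with no symbol, had rises of 4.31 and 4.09. Among genes without a role, Cre06.g293362, Cre01.g034850 and Cre06.g253051 had rises of 5.11, 4.61 and 4.46.

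The most abundant member had no name. Cre13.g580000 had 432, 387 and 453 TPM before heating and 3179.6, 3037 and 2345 TPM at 0.5 h, more than HSP70A and CRT2. In the RefSeq gene models of assembly v5.5 it overlaps Cre13.g580050, and since the sources do not say whether counting used strand, reads of the overlap cannot be told apart. The same holds for the member Cre12.g545550 and its neighbour Cre12.g545600, which stood 6.06 above pre-heat at 0.5 h. In those models 3 pairs of members were direct neighbours, namely FAP346 with FAS2, Cre06.g273500 with Cre06.g273550 and Cre07.g341550 with Cre07.g341551. Of 117 other direct neighbours of members, 32.5% stood 1 or more above pre-heat at 0.5 h of 40 °C, against 20.6% of all tested genes, and this was not tested.

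The 35 °C treatment was taken to ask whether milder heat also moved these genes. Its libraries entered the choice of members only through the filter for genes with enough reads and the TMM scaling. When 35 °C was reached, 24 of the 71 members were higher than at 35 °C pre-heat by edgeR's quasi-likelihood test (adjusted p under 0.05, a log2 fold change above 1 and a mean TPM difference of at least 1), against 3.72% of all tested genes. At 0.5 h the count was 14, with 3.22% of all genes called, and at 1 h it was 6, with 2.91%. Median log2 fold changes of the members were 0.69, 0.43 and 0.17, and those of all genes lay between 0.01 and 0.04. These comparisons share the 35 °C pre-heat libraries. The 529 other genes gave 218, 169 and 137 calls, with medians of 1.57, 1.27 and 1.11. Without library B of 0.5 h at 35 °C the count there was 9, and with log2(TPM + 1) values in limma the counts were 12, 6 and 0, with 7 members higher at 1 h by an unadjusted p under 0.05.

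Of the 12 heat shock factor and chaperone members, 11 were called when 35 °C was reached, 7 at 0.5 h and 2 at 1 h. HSF1 had 2.52, 2.18 and 2.10 TPM at 35 °C pre-heat, 6.84, 5.64 and 6.93 TPM when 35 °C was reached and 3.31, 4.87 and 3.16 TPM at 0.5 h, with log2 fold changes (± SE here and below) of 1.70 ± 0.22, adjusted p = 2.62e-09 and 1.07 ± 0.21, adjusted p = 4.13e-05. HSP70A had 281, 281 and 270.3 TPM, then 661, 755 and 827 TPM and 220.4, 484 and 328 TPM, and its log2 fold change was 1.62 ± 0.42, adjusted p = 0.00156 when 35 °C was reached. By 0.5 h its library A was below the 35 °C pre-heat range and B and C above it. BIP1 changed by 1.64 ± 0.37, adjusted p = 0.000334 and by 1.29 ± 0.37, adjusted p = 0.00365, and HSP70B by 1.19 ± 0.27, adjusted p = 0.000366 and 1.14 ± 0.27, adjusted p = 0.000521, at the same 2 time points. CPN60C was called throughout, at 1.16 ± 0.37, 1.499 ± 0.37 and 1.29 ± 0.37 (SE). The chaperone left uncalled was Cre07.g341550, at 0.68 ± 0.26, adjusted p = 0.0324, when 35 °C was reached.

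Of the 9 ER, ubiquitin and traffic members 4 were called when 35 °C was reached, among them UBC13 at 1.41 ± 0.23, adjusted p = 1.64e-06 and CRT2 at 1.07 ± 0.25, adjusted p = 0.000491, and CRT2 alone of them at 0.5 h, at 1.19 ± 0.25, adjusted p = 0.000106. Of the 8 surface and protease members 3 were called when 35 °C was reached (CEP9, FAP346 and PFH16) and 1 at 0.5 h (FAS2), the latter at 1.11 ± 0.41, adjusted p = 0.0244. CEP9 had the largest log2 fold change of these calls, 2.51 ± 0.68, adjusted p = 0.00246, from 1.19, 0.429 and 0.582 TPM to 6.26, 3.17 and 2.23 TPM. The largest at 0.5 h were Cre08.g362750 at 2.05 ± 0.25, adjusted p = 9.93e-10, HLA8 at 1.89 ± 0.31, adjusted p = 7.79e-07 and Cre07.g321850 at 1.61 ± 0.28, adjusted p = 2.97e-06. Cre08.g362750 went from 4.97, 6.84 and 6.39 TPM to 18.1, 22.1 and 19.7 TPM, with no overlap. The 6 members called at 1 h were Cre08.g362750, HLA8, Cre13.g580000, Cre07.g321850, CPN60C and Cre07.g326250, with log2 fold changes from 1.15 to 1.49. NTR3 and MMP7 had log2 fold changes at 35 °C of 0.05 ± 0.33 and 0.99 ± 0.41 (SE) when the temperature was reached, neither of them called.

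**Figure D4:**
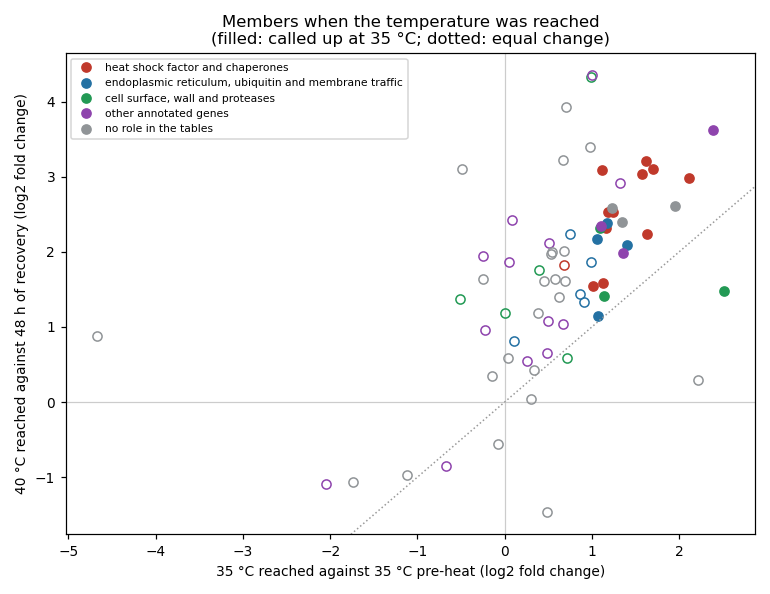
Log2 fold change of the 71 members when 35 °C was reached against 35 °C pre-heat (x axis) and when 40 °C was reached against 48 h of recovery from 40 °C (y axis), coloured by role; filled points are the 24 members called up at 35 °C and the dotted line marks equal change. Of the 12 heat shock factor and chaperone members, 11 are filled.

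The time points on either side of the peak at 40 °C were compared with the 48 h recovery libraries. Both entered the choice of members only through the filter for genes with enough reads and the TMM scaling. When 40 °C was reached 48 members were called higher, against 7.34% of all genes, and at 1 h 51 were, against 11.9%. Members' median log2 fold changes were 1.82 and 1.98, and those of all genes −0.06 and 0. Of the 529 other genes 310 and 414 were called. Both comparisons share the 48 h libraries. All 12 heat shock factor and chaperone members were called at each time point, HSP70A at 3.21 ± 0.44, adjusted p = 9.41e-09 and 2.48 ± 0.43, adjusted p = 9.58e-07, and HSF1 at 3.10 ± 0.22, adjusted p = 3.15e-18 and 2.23 ± 0.22, adjusted p = 4.92e-14. Of the 9 ER, ubiquitin and traffic genes 8 were called at each time point, RAD23 being left uncalled. Of the 8 surface and protease genes 4 and 3 were called, MMP7 at 4.33 ± 0.46, adjusted p = 4.04e-12 and 2.09 ± 0.42, adjusted p = 1.68e-05. Altogether 18 members were called at neither time point, among them GSL1, FAS2, CEP9, MMP10, RAD23 and PHO4. Of these PHO4, at 3.36 ± 0.58, adjusted p = 9.47e-07, and MMP10, at 1.83 ± 0.82, adjusted p = 0.0437, missed the call at 1 h by the TPM criterion alone, and GSL1, at 1.19 ± 0.55, adjusted p = 0.0658 when 40 °C was reached, was called there with the replicate letter as a block (1.43 ± 0.45, adjusted p = 0.00615). Leaving out a library gave 42 to 50 and 49 to 53 calls.

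The changes at the 2 temperatures were then set against each other, each relative to its own 48 h recovery libraries. When the temperature was reached 26 members had a higher change at 40 °C than at 35 °C (adjusted p under 0.05 and a difference above 1 on the log2 scale), against 2.88% of all genes, and at 1 h 51 did, against 10.5%. The first count rested on library C of the time point at which 40 °C was reached, the library in which 64 members were highest, and was 11 without it and 21 to 34 without another library of either temperature. The second lay between 48 and 52. At the earlier time point the difference was 3.61 ± 0.68, adjusted p = 0.000239, for VFL5, 3.47 ± 0.59, adjusted p = 5.19e-05, for MMP7, and 1.73 ± 0.47, adjusted p = 0.0129, for NTR3. It was 1.45 ± 0.30, adjusted p = 0.000701, for HSF1, while HSP70A, at 1.46 ± 0.58, adjusted p = 0.108, and BIP1, at 0.77 ± 0.51, adjusted p = 0.385, were not called. At 1 h HSP70A differed by 2.02 ± 0.58, adjusted p = 0.00497, and 11 of the 12 heat shock factor and chaperone members and all 9 ER, ubiquitin and traffic members were called. BIP1 was the exception, at 1.22 ± 0.51, adjusted p = 0.0616, and was called with the replicate letter as a block (adjusted p = 0.0482).

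During cooling part of the set lay below its level after long recovery. At 0 h of recovery from 40 °C, 17 members were lower than at 48 h of recovery, against 12.1% of all genes, and 5 were higher, against 16.1%. HSP70A had 51.1, 222 and 37.5 TPM at 0 h and 165, 290.3 and 257 TPM at 48 h of recovery, a log2 fold change of -1.08 ± 0.41, adjusted p = 0.0182, and library B overlapped the later group. HSP70E had 5.58, 23.9 and 4.25 TPM against 18.8, 38.7 and 30.9 TPM, again with library B apart from A and C. Other chaperone members called lower were BIP1, DNJ8, DNJ35 and Cre07.g321850, and DNJ35, SEC22 and MKP6 were each lower by more than 2 on the log2 scale. Cre13.g580000 had 62.0, 111 and 61.3 TPM at 0 h and 436, 498 and 432 TPM at 48 h. HSF1 was called the other way, with 4.48, 4.93 and 4.35 TPM at 0 h and 2.69, 2.55 and 2.00 TPM at 48 h (1.03 ± 0.21, adjusted p = 2.22e-05). So were GSL1 at 1.47 ± 0.55, adjusted p = 0.0159, Cre07.g326250 at 1.17 ± 0.26, adjusted p = 6.8e-05, FAS2 at 1.08 ± 0.41, adjusted p = 0.016 and Cre01.g004900 at 1.01 ± 0.38, adjusted p = 0.0161. With the replicate letter as a block FAS2 lost the call, its log2 fold change being 0.995. The higher count was 3 without library A or C of 0 h or B of 48 h, and 2 without B of 0 h or C of 48 h, while the lower count lay between 14 and 21.

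After 2 h of recovery from 40 °C, 8 members were higher than at 48 h, against 16.7% of all genes, and 10 lower, against 11.3%, and the higher count was 5 without library C of 2 h. Which count was the larger depended on the processing, since 16 were higher and 6 lower by library size alone and 21 and 2 with limma on log2(TPM + 1). HSF1 was again among the higher ones at 1.17 ± 0.21, adjusted p = 1.95e-06, with RAD23 at 1.12 ± 0.20, adjusted p = 1.94e-06. BIP1 at -1.33 ± 0.37, adjusted p = 0.00121, CRT2 at -1.30 ± 0.25, adjusted p = 7.89e-06 and CPN60C at -1.42 ± 0.37, adjusted p = 0.000566 were lower, as was Cre07.g321850 at -3.77 ± 0.32, adjusted p = 9.61e-17. By 8 h the median member stood 0.04 above 40 °C pre-heat, a base the rule used, and the median of all genes at −0.02. Cre03.g199050 and Cre02.g076987 stood 5.12 and 4.10 above that base. The former was below 1 TPM in every library and the latter at 14.5, 16.2 and 10.4 TPM. AIH2 had 8.77, 15.4 and 15.3 TPM at 8 h.

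**Figure D5:**
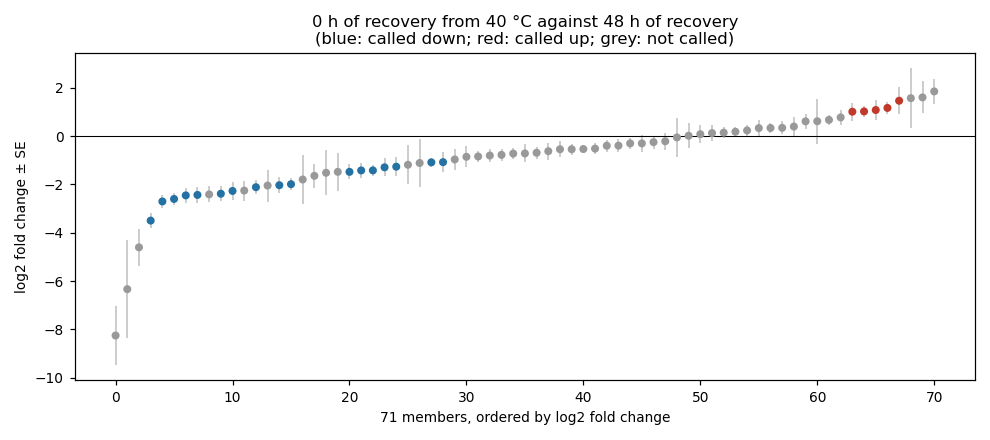
Log2 fold change (points) and SE (bars) of the 71 members at 0 h of recovery from 40 °C against 48 h of recovery, in order of size; blue points are the 17 called lower, red the 5 called higher and grey those not called, which include genes with a mean TPM difference under 1. Most members lie below 0.

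At 0 h of recovery from 35 °C, compared with 35 °C pre-heat, 13 members were lower, against 6.09% of all genes, and 1 was higher, MMP7 at 1.35 ± 0.42, adjusted p = 0.00586, against 5.00%. FAP346 at -3.43 ± 0.50, adjusted p = 7.8e-08, GSL1 at -3.12 ± 0.69, adjusted p = 0.000166 and FAS2 at -2.50 ± 0.45, adjusted p = 5.3e-06 were the lowest of those called. CEP9 was lower still, at -5.07 ± 1.71, adjusted p = 0.012, and missed the call by the TPM criterion alone. The higher count was 2 without library C of either group. The 2 temperatures were also set against each other at this time point, with 48 h of recovery as the base of each. Here 8 members (11.3%) had a higher change after 40 °C than after 35 °C, against 16.1% of all genes. A lower change was called for 13 (18.3%), against 13.7%, so both shares were near those of all genes. GSL1 at 4.89 ± 0.89, adjusted p = 5.57e-06, FAS2 at 3.57 ± 0.61, adjusted p = 1.51e-06, FAP346 at 3.02 ± 0.66, adjusted p = 0.000113 and HSF1 at 1.94 ± 0.30, adjusted p = 2.81e-07 were among the members with a higher change. HLA8 at -2.79 ± 0.43, adjusted p = 1.77e-07 and MKP6 at -2.44 ± 0.35, adjusted p = 3.44e-08 were among those with a lower one.

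Most other heat shock genes were not members. Of 3 heat shock factor genes HSF1 alone was a member. HSF2 stood 3.58 above pre-heat at 0.5 h of 40 °C and was still 1.60 above it at 2 h, while HSFL stood at 1.76 and 0.56. None of the 8 small heat shock protein genes was a member, although all 8 met the first part, with a median of 9.72 at 0.5 h, 4.35 at 2 h and 5.93 at 24 h. HSP22A, HSP22B and HSP22C were 11.84, 8.85 and 7.86 above pre-heat at 2 h. Of 16 HSP70, HSP90 and HSP100 genes 10 met the first part and 5 were members. BIP2 stood 7.61 above pre-heat at 0.5 h and −0.34 at 2 h but 2.45 at 24 h, and CLPB3, at 5.83, and HSP90C, at 4.80, were 1.32 and 1.24 above it at 2 h. Of 24 co-chaperone and chaperonin genes 16 met the first part and 4 were members, while DNJ7, DNJ21 and CPN60B2 stood 4.89, 3.09 and 1.48 above pre-heat at 2 h.

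When 35 °C was reached, 3.72% of all genes were called higher. So were 2 of the 3 heat shock factors and 3 of the 8 small heat shock proteins. Of the HSP70, HSP90 and HSP100 genes 10 of 16 were called higher, and of the co-chaperones and chaperonins 9 of 24. Members made up 1, 0, 5 and 4 of these calls, in that order. Among the 16, 1 was called lower, and none in the other 3 lists. At 0.5 h of 35 °C, where 3.22% of all genes were called higher, the numbers were 2, 3, 6 and 13. Of those calls 1, 0, 3 and 2 were of members, and 1 of the 24 was called lower. Stress antenna and early light-induced genes, of which 11 were tested, held 6 that met the first part and no member. PSBS1, which serves in photoprotection, was 8.20 above pre-heat at 0.5 h and 3.81 at 2 h. Of 21 adenylate and guanylate cyclase genes 1 met the first part and none was a member.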

How the data were processed

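PolyA RNA of strain CC-1690 was sequenced as paired reads in 90 libraries, 3 for each of 15 time points at 35 °C and at 40 °C. Reads were filtered by the authors (BBDuk, BBMap), checked in FastQC, aligned with STAR to the v5.6 genome, allowing 1 locus per read, and counted per gene with HTSeq (tool names per the labels and the study's methods). They deposited a table of raw read counts and, for each library, TPM values (the length-corrected share of each gene's transcripts). Reads that fit several loci were thus not counted, which lowers close relatives. Tool versions and the strand setting of the counting were not stated in the sources at hand.

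Genes with 10 or more reads in at least 9 libraries were kept (15541 of 17741). Log2 CPM with TMM factors and a prior count of 2 came from edgeR 4.0.16 in R 4.3.3. Tests were edgeR's quasi-likelihood F test on the counts, in 1 fit over all 30 groups with no covariate, two-sided, with Benjamini-Hochberg adjustment over all 15541 genes. A call needed an adjusted p under 0.05, a log2 fold change past 1 and a mean TPM difference of at least 1 (not asked of differences between temperatures). The SE of a log2 fold change was derived from the test, as its absolute value divided by the square root of the F statistic. The p-values measure the spread between replicate libraries pooled over all 30 groups, not that of the compared groups alone. The letters were checked for pairing by the correlation, over genes, of same-letter deviations from the group means, which in the 4 comparisons at 40 °C was over 0.1 in each of 12 pairs (0.13 to 0.51) and at 35 °C ran from −0.05 to 0.45, with each pair over 0.1 at 0.5 h only. By that criterion the letters paired the libraries in those 5 of 8 comparisons. For 0.5 h of 35 °C alone the test was tried on simulated counts with known changes, drawn without any pairing of the letters. Alternatives were DESeq2 1.42.0, its size factors, library size alone, limma 3.58.1 on log2(TPM + 1), no TPM criterion, no filter, other prior counts, a replicate block and each library left out.

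Every member with a symbol is named, with the 10 largest rises of at least 5 TPM, the 5 highest levels, the 3 largest called changes 0.5 h into 35 °C and on recovery from 40 °C (0 h), the 2 genes nearest the limit on either side, and up to 3 other genes a list. Other genes named were chosen after their values were seen. The members, lists and tests were chosen with earlier results of these data known, and the comparisons between temperatures were added after seeing the data. Gene symbols came from the study's annotation tables, and neighbours from RefSeq models of assembly v5.5, in which all 71 members were found. Sequences were not used here.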

Additional observations from a re-analysis of the deposited data

Results flagged for a closer look

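The change of the members was tested for a difference between the temperatures, each against its own 48 h of recovery, and calls were found at 3 time points. When the temperature was reached 26 members changed more at 40 °C than at 35 °C, against 2.88% of all genes. Without library C of the time point at which 40 °C was reached, that count was 11. At 1 h 51 members changed more, against 10.5% of all genes. At 0 h of recovery 8 members (11.3%) had a higher and 13 (18.3%) a lower change at 40 °C than at 35 °C. Of all genes 16.1% and 13.7% were called there, so the members' shares were near those of all genes.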

How the results depend on the processing

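Of 123 recomputed counts, in which no library was left out of the tests, 96 stayed within 1.5 times the reported one. They include the counts for the 36 genes that met the rule without library A of 0.5 h, set against counts out of 71. Why the counts outside that range moved was not tested beyond what each setting changes. The number of genes that met the rule was 23 by library size alone, 30 on log2(TPM + 1) values and 280 with a rise of 2 or more, and leaving out a library or a letter gave 36 to 123. By library size alone, 7 members were called higher at 0.5 h of 35 °C, 2 higher at 0 h of recovery from 40 °C, and 16 higher and 6 lower at 2 h. With limma on log2(TPM + 1), 12, 6 and 0 members were higher when 35 °C was reached, at 0.5 h and at 1 h. Limma called 0 higher at 0 h of recovery from 35 °C (7 by an unadjusted p under 0.05), 2 at 0 h from 40 °C, and 21 higher and 2 lower at 2 h. Between the temperatures it gave 13 higher when reached and 4 lower at 0 h of recovery. Without the TPM criterion 4 were higher at 0 h of recovery from 35 °C. For the 36 genes that met the rule without library A of 0.5 h, an alternative added after seeing the data, 9 were higher at 0.5 h of 35 °C and 7 lower at 0 h of recovery from 35 °C. Against 48 h of recovery from 40 °C, 28 of the 36 were higher when 40 °C was reached and 30 at 1 h, beside 48 and 51 of the 71 members. At 0 h of recovery 2 were higher and 10 lower, beside 5 and 17 of the 71. At 2 h 3 were higher, beside 8 of the 71. Counts for the 36 genes are out of a smaller set than the reported ones, so a smaller count need not be a smaller share. Between the temperatures 15 of the 36 changed more when reached, 27 at 1 h and 4 at 0 h of recovery.

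Leaving out each library in turn gave 20 to 24, 9 to 16 and 6 higher at the first 3 time points of 35 °C, and 1 to 2 higher and 11 to 14 lower at 0 h of recovery. At 40 °C it gave 42 to 50 and 49 to 53 higher at reaching and 1 h, 2 to 5 higher and 14 to 21 lower at 0 h of recovery, and 5 to 8 higher and 9 to 11 lower at 2 h. Between the temperatures it gave 11 to 34, 48 to 52, 7 to 8 higher and 10 to 18 lower.

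With the replicate letter as a block, 24, 14 and 6 members were higher at the first 3 time points of 35 °C, and 49 and 51 at reaching and 1 h of 40 °C. The block gave 4 higher and 17 lower at 0 h of recovery from 40 °C, 7 and 10 at 2 h, 1 and 13 at 0 h from 35 °C, and 31, 53, 8 and 13 between the temperatures. In the 5 comparisons where the letters paired the libraries, the block changed the calls of GSL1 when 40 °C was reached and of FAS2 at 0 and 2 h of recovery and no other. Depth limits the 10 members with fewer than 10 reads in a pre-heat library.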
